A study of Mus musculus with 8 samples.

Results

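The PRAME-like and oogenesin genes Pramel1, Pramel3, Pramel4, Pramel5, Pramel6, Pramel7, Pramef12, Oog2, Oog3 and Oog4 were followed in mouse embryos at the 2-cell stage. They were taken by symbol, and all 10 were found among the 37310 gene identifiers of the count tables. RNA had been sequenced from 8 pools of embryos, 4 wild-type and 4 with a Gadd45a/Gadd45b double knockout (DKO), all of strain C57BL/6N. Each pool held 23 to 35 embryos of 1 litter, from a superovulated and naturally mated female 3 to 4 weeks old, taken 20 h after a plug was seen. DKO embryos came from DKO females, so mother and embryo lacked both genes, and loss in the oocyte cannot be told apart from loss in the embryo. Pools were separate litters, and p-values describe the spread between such pools.

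PRAME-like proteins are built almost wholly of leucine-rich repeats and take their name from a human antigen of melanoma and testis. Several act as substrate receptors of ubiquitin ligases built on the scaffold CUL2; PRAMEL7 is known to send UHRF1, a guide of maintenance DNA methylation, for degradation. In the mouse the genes form large tandem clusters. The oogenesins (Oog) are transcribed in the growing oocyte and their RNA is carried into the embryo, Pramel4, Pramel5, Pramel6 and Pramel7 are known from preimplantation embryos and embryonic stem cells, and Pramel1, Pramel3 and Pramef12 are known mainly from the testis.

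Of the 10 genes 7 lay on chromosome 4, within 1.01 Mb of each other on GRCm38. Pramel6 and Pramel7 were on chromosome 2 and Pramel3 on chromosome X. The sequences upstream of the 5 named genes with the most counts are shown, so that the oogenesins can be compared with Pramel6 and Pramel7. Each is the 250 bases before the RefSeq transcription start (build GRCm38.p6), written 5′ to 3′ on the strand of the gene: Oog3 is chr4:144162652-144162901 (minus strand), Oog2 chr4:144190467-144190716 (plus), Oog4 chr4:143450325-143450574 (minus), Pramel6 chr2:87506315-87506564 (plus) and Pramel7 chr2:87492419-87492668 (minus). In the 3 Oog sequences capitals mark words of at least 8 bases held by all 3; in Pramel6 and Pramel7 they mark such words held by at least 1 of the 3.
Oog3: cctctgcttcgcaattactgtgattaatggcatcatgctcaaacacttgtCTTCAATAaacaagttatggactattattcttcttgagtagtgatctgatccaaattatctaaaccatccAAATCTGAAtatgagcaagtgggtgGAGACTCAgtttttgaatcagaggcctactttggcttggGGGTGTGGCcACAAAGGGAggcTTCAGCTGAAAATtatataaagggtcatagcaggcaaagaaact
Oog2: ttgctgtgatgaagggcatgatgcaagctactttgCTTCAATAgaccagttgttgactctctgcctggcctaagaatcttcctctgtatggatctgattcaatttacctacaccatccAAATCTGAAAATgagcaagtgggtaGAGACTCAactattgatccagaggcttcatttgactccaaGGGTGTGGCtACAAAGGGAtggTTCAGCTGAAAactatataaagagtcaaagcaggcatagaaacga
Oog4: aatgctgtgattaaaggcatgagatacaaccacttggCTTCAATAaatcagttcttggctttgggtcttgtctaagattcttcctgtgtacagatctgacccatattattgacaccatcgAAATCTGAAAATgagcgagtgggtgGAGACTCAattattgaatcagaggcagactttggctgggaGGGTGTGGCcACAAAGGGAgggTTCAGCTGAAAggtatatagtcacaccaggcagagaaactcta
Pramel6: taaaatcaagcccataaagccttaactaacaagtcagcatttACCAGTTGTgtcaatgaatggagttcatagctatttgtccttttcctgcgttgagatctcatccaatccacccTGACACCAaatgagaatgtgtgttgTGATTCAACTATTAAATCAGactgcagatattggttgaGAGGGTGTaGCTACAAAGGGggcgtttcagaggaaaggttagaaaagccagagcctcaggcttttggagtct
Pramel7: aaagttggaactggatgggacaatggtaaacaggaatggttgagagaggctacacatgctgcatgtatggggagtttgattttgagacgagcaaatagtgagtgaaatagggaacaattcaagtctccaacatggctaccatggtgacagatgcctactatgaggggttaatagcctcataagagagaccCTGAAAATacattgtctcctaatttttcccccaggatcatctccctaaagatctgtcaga

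The oogenesin promoters were copies of one another, with 70% to 76.4% identity over the 250 bases. The longest word held by all 3 was TTCAGCTGAAA, centred on an E-box of the form CAGCTG; it began 45, 44 and 43 bases before the start in Oog2, Oog3 and Oog4. It was rare: of 27025 mouse promoters, 1 per gene, 13 (0.0481%) held it on either strand, against 3450 (12.8%) for CAGCTG alone. Among those 13 were the 3 oogenesins, the relatives Gm13089, Gm13084 and C87499, and Oog1, which had no row in the tables. This word was chosen from the sequences themselves. TATAAA stood 29 bases before the start of Oog3 and 30 before that of Oog2, and in no other of the 10 genes; 13% of all promoters held it.

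Pramel6 was 56% to 58.8% identical to the oogenesins upstream and held 2 CCAAT words, and Pramel7 shared 1 word of 8 bases with them. Apart from these Pramel6 pairs, the oogenesin pairs and Pramel4 with Pramel5, upstream identity between the 10 genes was 40.4% to 50.4%. Pramel7 with the oogenesins, at 45.2% to 46.8%, lay in that range. How often unrelated sequences share a word of 8 bases was not tested. Of the motifs searched, the Pramel7 sequence held only the general E-box. A form bound by STAT factors, TTCNNNGAA, was in 0 of the 10 windows (7.18% of all promoters). The oogenesin word TTCAGCTGAAA also holds TTC and GAA, at a wider spacing that was not searched as a STAT form. CCAAT was in 5 of the 10 (34.5% of all promoters), the general E-box CANNTG in all 10 (66%) and TAATTG in 3 (7.34%). TAATCC was in 2 (6.38%), the copies Pramel4 and Pramel5, within a run of 48 bases held by both. GGGCGG was in 1, Pramel1 (32.9%), and TAATTA in 0 (4.9%). Windows that are copies of one another are not separate cases beside the share of all promoters. All motifs were searched on both strands, and CAGCTG matches are also CANNTG matches. These are matches of letters and not measured binding.

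How far counts could be told apart between copies was read from the transcripts. For each gene the longest coding transcript in GENCODE mouse release 21 was broken into all windows of 85 bases, the read length, and a window was called shared where it also occurred in a transcript of another gene on either strand. Oog4, Pramel6, Pramel7, Pramef12 and Pramel1 shared 0% of their windows. Pramel5 shared 8.58%, Oog3 12.4% (with Gm4350, which had no row in the tables) and Oog2 26.7%, nearly all with Gm13084.

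Pramel4 shared 88.9% of its windows, and 88.2% of its windows were shared with the copy Gm13102, and Pramel3 shared 66.7%, most with Gm15023. The tables held 1054 counts of Gm13102 and 84 of Gm15023 over the 8 libraries, against 4388 of Pramel4. The sources used here do not say how reads with several matches were counted, so values of Pramel3 and Pramel4 are uncertain as levels of single genes. Between members the coding sequences were closest for Pramel4 and Pramel5, with 84.9% identity, followed by Oog2 and Oog3 with 76.4%.

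**Figure D1:**
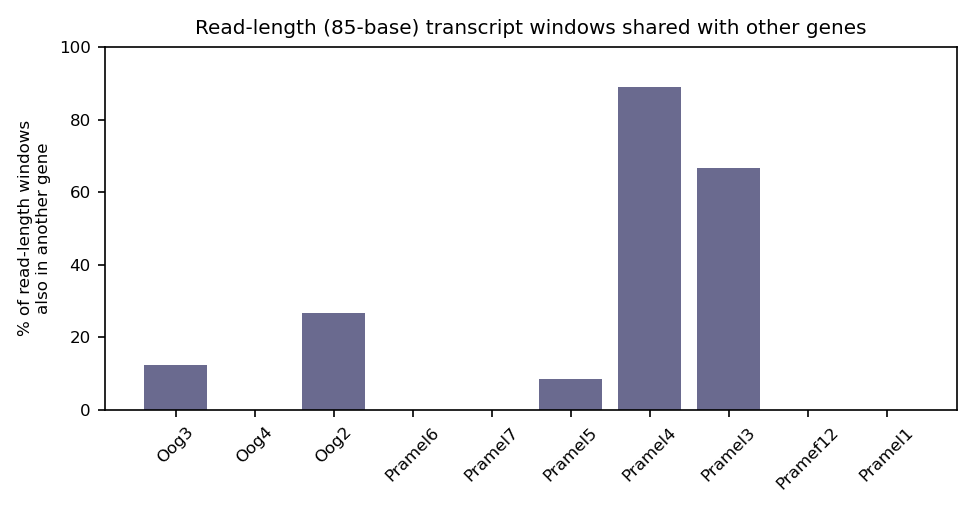
Percent of the 85-base windows of each gene's longest coding transcript that also occur in a transcript of another gene (vertical axis) for the 10 genes (horizontal axis). The bars of Pramel4 (88.9%) and Pramel3 (66.7%) stand above all others, and 5 genes have no bar because they shared 0%.

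The libraries held 21329736 to 23919114 counts each. Gadd45b, the targeted gene whose loss shows in the counts, had 808 to 1395 counts in wild-type and 1 to 14 in DKO. Gadd45a had 341 to 502 and 163 to 247. The deleted part of that gene is not stated, so its remaining counts do not check the knockout. Its log2 fold change was −1.09 ± 0.22 (SE), with an adjusted p of 0.303 by edgeR and 0.000794 by DESeq2. The edgeR test used below thus did not call Gadd45a, although its pools did not overlap. Summed CPM (counts relative to the TMM-scaled library size) of 12 oocyte-derived markers was 9026 to 10580 in wild-type and 9732 to 11987 in DKO, and that of 10 markers of the 2-cell embryo 1657 to 2229 and 1633 to 2259. The 17 cumulus and granulosa markers summed to 41.0 to 53.4 CPM in wild-type and 38.9 to 58.2 in DKO, with Amh, Inhba, Foxl2 and Ptx3 at 0 in every library. The 10 sperm markers summed to 57.7 to 66.9 and 51.8 to 109, the 10 blastocyst markers to 57.5 to 62.9 and 46.1 to 58.6, and 8 blood markers to 9.34 to 161 and 10.5 to 207, the high blood values being 1 pool of each genotype. Most of the sperm sum was Odf2 alone, at means of 62.0 CPM in wild-type and 76.3 in DKO. The next sperm marker, Odf1, averaged 0.473 and 0.755 CPM, so the sum is no measure of sperm RNA at large. Most of the oocyte-derived sum was Dppa3, at means of 7796 and 7953 CPM. DKO replicate 1 had the lowest limma quality weight (0.365), the highest oocyte-derived sum (11987 CPM) and the highest sperm sum (109 CPM). The part of these differences in any result below was not tested.

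Oog3 had the highest level of the family. In wild-type pools its RNA stood at 2694 ± 207 CPM per kilobase of exon (SD, n = 4), the 7th highest of 13015 protein-coding genes tested. Among the 10 named genes the order of mean levels per kilobase in wild-type went on with Pramel7 at 157 ± 36.2, Pramel6 at 149 ± 23.8, Oog4 at 51.0 ± 8.42, Oog2 at 37.5 ± 6.28, Pramel5 at 17.6 ± 6.60, Pramel4 at 11.6 ± 4.48, Pramel3 at 6.94 ± 1.64, Pramef12 at 3.88 ± 0.320 and Pramel1 at 0.859 ± 0.212 (SD, n = 4 each). Per kilobase of the longest transcript alone Pramel6 was at 174 and Oog2 at 48.5, with the order unchanged. Of the other family genes, Gm13023 at 272 ± 68.3 (SD, n = 4) had a higher mean than Pramel7, and 6 more, Gm13084 and C87414 among them, had higher means than Oog4. Windows of Gm13023, Gm13084 and C87414 were partly shared with other genes. Neighbours whose pools overlapped were Pramel7 and Pramel6, Oog4 and Oog2, Pramel5 and Pramel4, and Pramel4 and Pramel3. The gap from Oog3 to the next gene and the gaps from Pramel6 to Oog4, Oog2 to Pramel5, Pramel3 to Pramef12 and Pramef12 to Pramel1 were free of overlap. In DKO pools the means per kilobase were 3212 ± 419 for Oog3, 114 ± 21.1 for Pramel6, 111 ± 19.0 for Pramel7 and 58.1 ± 15.4 for Oog4 (SD, n = 4 each).

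Levels within wild-type pools were steadiest for Oog3, with a coefficient of variation of 7.68%, and for Pramef12, with 8.24%. The least steady were Pramel4 at 38.6% and Pramel5 at 37.6%. In DKO pools Pramel1, the gene with the fewest counts, varied most, at 66.8%.

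The comparison of DKO with wild-type asked which of these transcripts differ when Gadd45a and Gadd45b are lost. None of the 10 genes passed edgeR's quasi-likelihood test at an adjusted p under 0.05 (0 of 10, against 0.0267% of the 14970 genes tested), and DESeq2 and limma-voom called 0 as well. At an unadjusted p under 0.05, 2 of the 10 were lower, Pramel6 and Pramel7 (4.44% of all genes tested were lower by that rule), and 0 were higher (5.79%). In 0 of the 10 did the 4 DKO values lie wholly above or below the 4 wild-type values, as they did in 5.34% of all genes tested. Of the fold changes 4 were positive, those of Oog2, Oog3, Oog4 and Pramef12, and 6 negative (48.8% of all genes tested were negative), with a median log2 fold change of −0.16 against 0.01 over all genes tested. That median was −0.01 without DKO replicate 1, and −0.0028 without Pramel3 and Pramel4. Because RNA was pooled, fewer embryos with a transcript and less of it per embryo cannot be told apart.

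**Figure D2:**
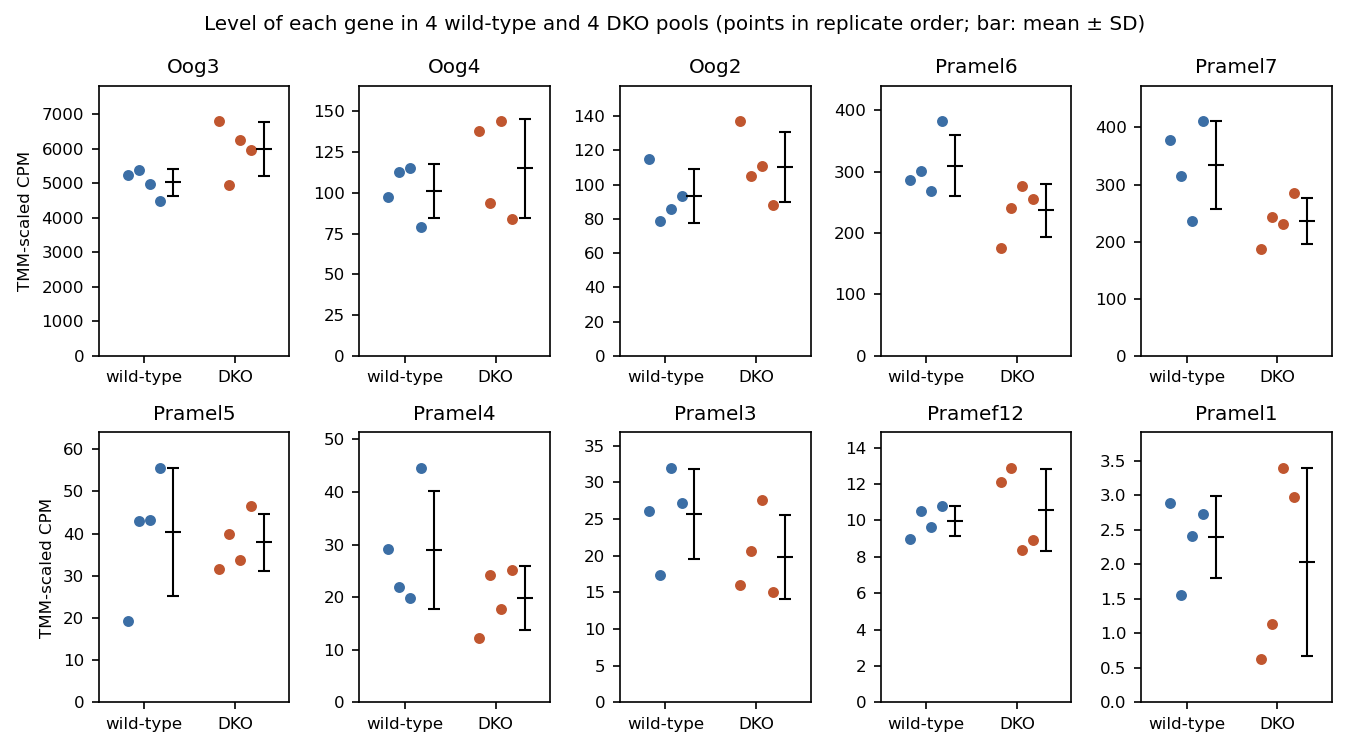
TMM-scaled CPM (vertical axis, linear from 0) of each of the 10 genes in the 4 wild-type and 4 DKO pools; points are pools in replicate order and the bar beside them is the mean ± SD. Oog3 pools lie between 4498 and 6796 CPM, and the 2 genotypes overlap in every panel.

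Among the oogenesins, leucine-rich repeat proteins of the oocyte and early embryo, Oog3 (ENSMUSG00000050810) had 121268, 116969, 111613 and 100630 counts in wild-type replicates 1 to 4 and 152015, 112351, 141431 and 134254 in DKO replicates 1 to 4. In CPM these were 5236, 5376, 4988 and 4498 against 6796, 4935, 6254 and 5974. DKO replicates 1, 3 and 4 were above every wild-type pool and DKO replicate 2 fell among them. The log2 fold change (DKO minus wild-type) was 0.25 ± 0.15 (SE; adjusted p by edgeR = 0.54), and 0.18 ± 0.13 without DKO replicate 1.

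Oog2 (ENSMUSG00000066030) stood at 115, 78.5, 85.8 and 93.3 CPM in wild-type and 137, 105, 111 and 88.2 in DKO replicates 1 to 4. The highest value was DKO replicate 1 and the lowest was wild-type replicate 2, with the other pools intermixed (log2 fold change 0.24 ± 0.17, SE; adjusted p by edgeR = 0.595). Without DKO replicate 1 the log2 fold change of Oog2 was 0.12.

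Oog4 (ENSMUSG00000047799), whose windows were all its own, stood at 97.6, 113, 115 and 78.8 CPM in wild-type and 138, 94.1, 144 and 84.0 in DKO. DKO replicates 1 and 3 were above all wild-type pools, while DKO replicates 2 and 4 lay within their range (log2 fold change 0.19 ± 0.20, SE; adjusted p by edgeR = 0.727). Leaving out DKO replicate 3 gave 0.07, and leaving out either DKO replicate 1 or wild-type replicate 4 gave 0.08.

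Pramel7 (ENSMUSG00000025839), the UHRF1-degrading member, had the smallest p of the 10. Its counts were 8762, 6861, 5273 and 9192 in wild-type and 4175, 5548, 5230 and 6403 in DKO. Scaled, these were 378, 315, 236 and 411 CPM against 187, 244, 231 and 285. Wild-type replicates 1, 2 and 4 exceeded every DKO pool, and wild-type replicate 3 was below DKO replicates 2 and 4. Its log2 fold change was −0.50 ± 0.19 (SE; adjusted p by edgeR = 0.469; unadjusted p = 0.0169), and DESeq2 gave an adjusted p of 0.264. Over 17 alternative fits the log2 fold change of Pramel7 ran from −0.64 to −0.39 and the adjusted p from 0.264 to 0.835.

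Pramel6 (ENSMUSG00000025838), its neighbour on chromosome 2 and a further PRAME-like gene of preimplantation embryos and embryonic stem cells, had pools at 287, 301, 269 and 382 CPM in wild-type and 175, 241, 276 and 255 in DKO. DKO replicate 1 was the lowest and wild-type replicate 4 the highest, and only DKO replicate 3 exceeded a wild-type pool. The log2 fold change was −0.39 ± 0.17 (SE; adjusted p by edgeR = 0.477; unadjusted p = 0.0387), and −0.27 ± 0.14 without DKO replicate 1. Pramel7 and Pramel6 shared no window of read length with each other or any other gene. Their count ratio was 1.32, 1.05, 0.875 and 1.08 in wild-type and 1.07, 1.01, 0.837 and 1.12 in DKO, so within a pool the pair stood close together.

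**Figure D3:**
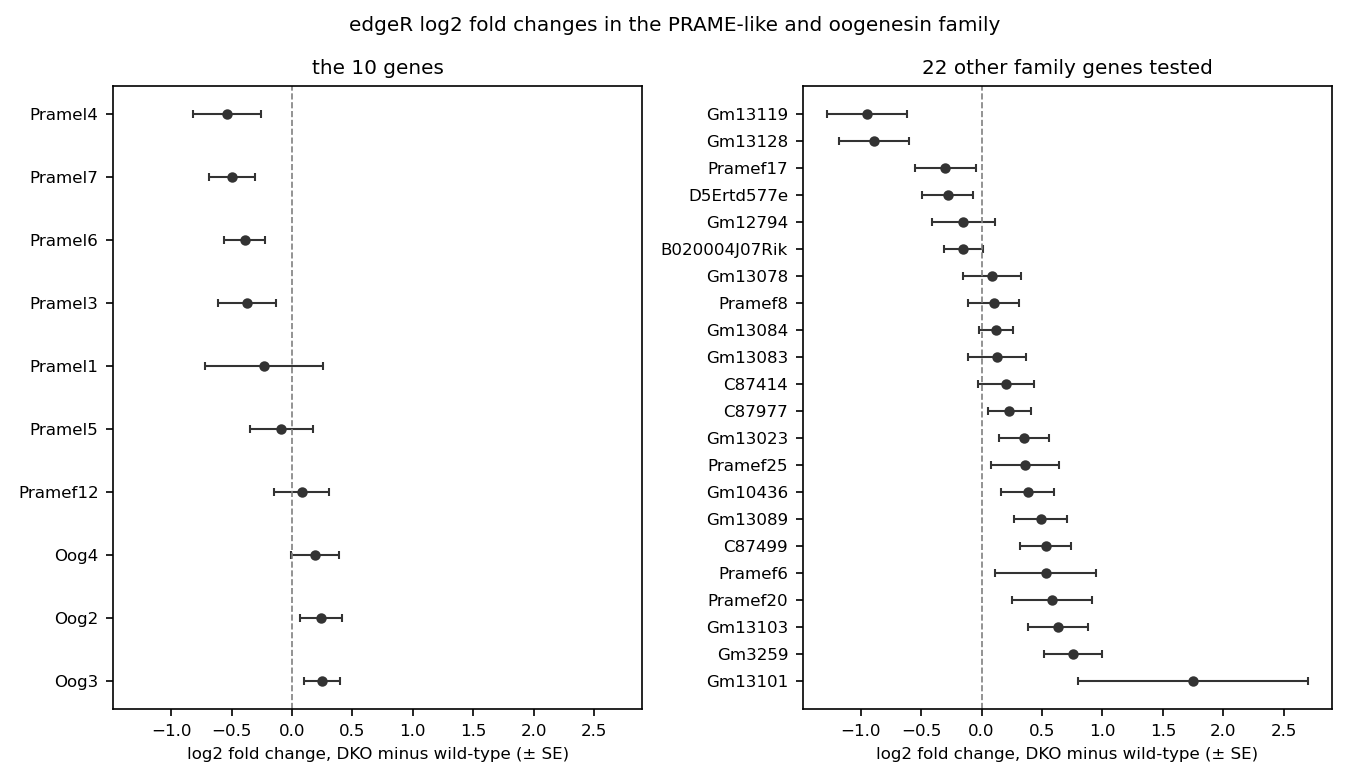
edgeR log2 fold change, DKO minus wild-type, with its SE (horizontal axis) for the 10 genes (left) and for 22 other tested genes of the family (right). On the left the 3 oogenesins and Pramef12 lie right of 0 and the other 6 genes left of it; no gene shown passed the adjusted test.

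Shares among the counts of the 10 genes within a library are quantities that no scaling alters. Oog3 took 84.4%, 85.6%, 86.0% and 80.3% of the counts of the 10 genes in wild-type and 90.6%, 86.3%, 88.0% and 88.0% in DKO. Pramel6 and Pramel7 together took 10.7%, 9.81%, 8.70% and 14.1% in wild-type and 4.81%, 8.47%, 7.14% and 7.96% in DKO. In both shares the genotypes did not overlap, the closest pools being wild-type replicate 3 and DKO replicate 2. Both are parts of the same total, most of which they fill. A higher share of Oog3 leaves less for the pair, so these are not separate observations. Over the counts of all 33 family genes in the tables both separations were lost: Oog3 took 64.1%, 66.8%, 63.2% and 64.8% in wild-type and 67.7%, 66.3%, 65.7% and 69.1% in DKO, and Pramel6 with Pramel7 took 8.15%, 7.65%, 6.40% and 11.4% against 3.6%, 6.5%, 5.33% and 6.25%. The count ratio of Oog3 to Pramel6 was 18.2, 17.9, 18.5 and 11.8 in wild-type and 38.9, 20.5, 22.6 and 23.4 in DKO. For Oog3 to Pramel7 it was 13.8, 17.0, 21.2 and 10.9 against 36.4, 20.3, 27.0 and 21, where the genotypes overlapped. These shares and ratios were formed after the values were seen and carry no test.

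**Figure D4:**
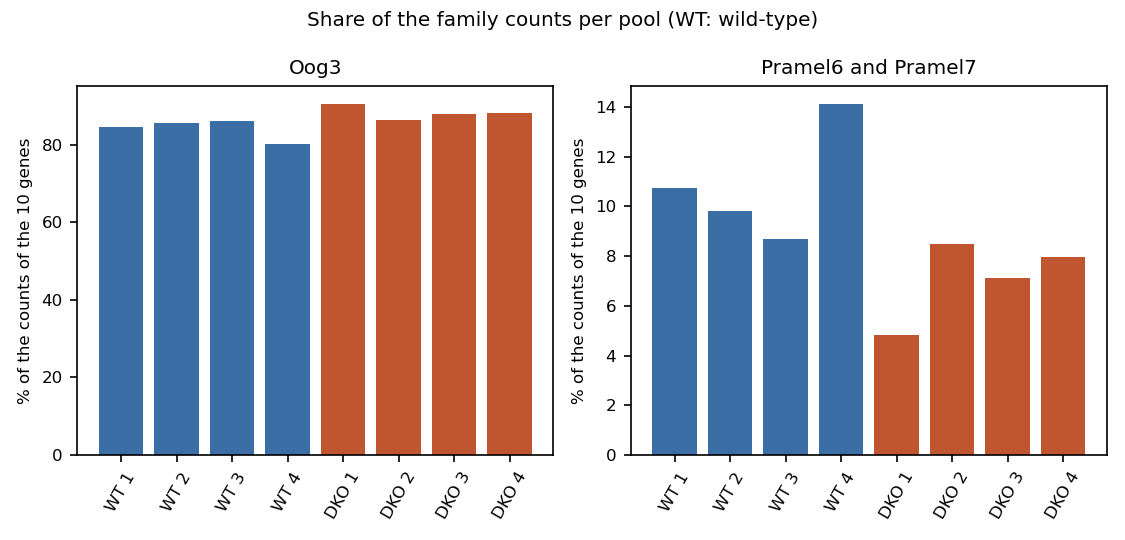
Share of the counts of the 10 genes held by Oog3 (left) and by Pramel6 and Pramel7 together (right), in percent (vertical axis, from 0), for each wild-type (WT) and DKO pool. Oog3 reaches 90.6% in DKO 1 and 80.3% in WT 4, where the other pair is lowest (4.81%) and highest (14.1%); over all 33 family genes the genotypes overlapped in both shares.

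Pramel4 and Pramel5, are close copies on chromosome 4. Pramel4 (ENSMUSG00000073724) stood at 29.1, 22, 19.9 and 44.6 CPM in wild-type and 12.2, 24.2, 17.8 and 25.1 in DKO, with a log2 fold change of −0.54 ± 0.28 (SE; adjusted p by edgeR = 0.496). Its highest pool was wild-type replicate 4, without which the log2 fold change was −0.26, and its lowest was DKO replicate 1, without which it was −0.38. Pramel5 (ENSMUSG00000036749) was at 19.4, 43.0, 43.3 and 55.6 CPM in wild-type and 31.5, 39.8, 33.7 and 46.6 in DKO. Wild-type replicates held both the lowest and the highest value, and the log2 fold change was −0.09 ± 0.26 (SE; adjusted p by edgeR = 0.915). Upstream the pair was 80% identical, and 5 runs of shared words covered most of the 250 bases.

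The members known mainly from testis were low. Pramel3 (ENSMUSG00000067360) stood at 26.1, 17.4, 32 and 27.2 CPM in wild-type and 16.0, 20.7, 27.6 and 15.0 in DKO, with both genotypes spread over most of the range (log2 fold change −0.37 ± 0.24, SE; adjusted p by edgeR = 0.568). Without DKO replicate 3 the log2 fold change of Pramel3 was −0.57, and with limma-voom it was −0.12. Pramef12 (ENSMUSG00000028591), listed by RefSeq as Pramel13 and known from spermatogonia, was at 8.98, 10.5, 9.65 and 10.8 CPM in wild-type and 12.1, 12.9, 8.40 and 8.94 in DKO. DKO pools held both its highest and its lowest value (log2 fold change 0.08 ± 0.23, SE; adjusted p by edgeR = 0.906). An antisense gene in its span, Pramef12os, had 2 to 18 counts a library against 190 to 293 of Pramef12.

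Pramel1 (ENSMUSG00000041805) had the fewest counts of the 10 genes, with 67, 34, 54 and 61 counts in wild-type and 14, 26, 77 and 67 in DKO. DKO replicates 1 and 2 were the lowest pools and DKO replicate 3 the highest. Its log2 fold change of −0.23 ± 0.49 (SE; adjusted p by edgeR = 0.872) became 0.06 ± 0.43 without DKO replicate 1. No difference in Pramel1 was detected, and 2 SE on either side of its log2 fold change reached from −1.22 to 0.75.

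**Figure D5:**
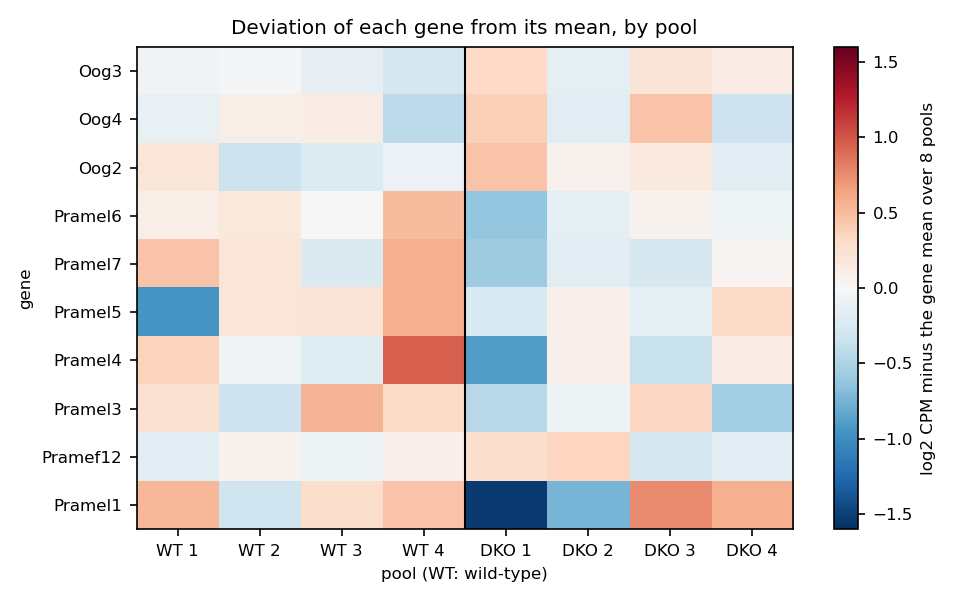
Log2 CPM of each of the 10 genes (vertical axis) in each wild-type (WT) and DKO pool (horizontal axis), minus the gene's mean over the 8 pools; red is above the mean and blue below. In DKO 1 the oogenesins are above their means (Oog2 by 0.45) and Pramel1, Pramel4, Pramel6 and Pramel7 below (Pramel6 by −0.62); in WT 4 the signs are the opposite (Pramel6 0.51, Oog4 −0.42).

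Averaged over the 10 genes, the deviation from the gene means was −0.29 in DKO replicate 1 and 0.26 in wild-type replicate 4, and between −0.09 and 0.09 in the other 6 pools. In DKO replicate 1 the average mixed opposite movements. Pramel1, the gene with the fewest counts, was at −1.53 and Pramel3 to Pramel7 between −0.90 and −0.25. Oog2, Oog3, Oog4 and Pramef12 were between 0.25 and 0.45, so the average does not describe each member. By the smallest mean absolute difference from this average profile over the 8 pools, the nearest of 10386 other protein-coding genes were Hnrnpa1 (0.0379 on the log2 scale), Ankrd40 (0.0433) and Clcc1 (0.0449). Their log2 fold changes were −0.19, −0.13 and −0.11; without DKO replicate 1 the nearest 3 held 1 of these genes.

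The rest of the family was compared with the 10 named genes. The tables held rows for 33 genes of the 51 that RefSeq names as Pramel or Oog genes, now or as a synonym, the 10 included. Of the 23 others 22 were tested and 0 were called by edgeR (0.0267% of all genes tested were). At an unadjusted p under 0.05, 2 were lower and 4 higher, beside 4.44% and 5.79% of all genes tested. Their median log2 fold change was 0.21, with 16 positive and 6 negative (48.8% of all genes tested were negative), and 0.17 without DKO replicate 1. The median of the 10 named genes was −0.16, with 4 positive and 6 negative, and −0.01 without DKO replicate 1. In direction the 10 thus did not stand for the rest, and this difference was not tested. The 5 with the most counts were Gm13023 (RefSeq Pramel25), at 493 ± 124 CPM in wild-type pools and 627 ± 154 in DKO pools, C87414 at 268 ± 85.5 and 308 ± 80.9, C87499 at 143 ± 25.9 and 207 ± 67.6, Gm13084 at 167 ± 12 and 182 ± 18.9, and Gm13078 at 143 ± 40.2 and 152 ± 52.9 (SD, n = 4 each). Their shared windows were 19.8% for Gm13023, 43.8% for C87414, 0% for C87499, 28.5% for Gm13084 and 4.85% for Gm13078. Some family genes share windows with each other, so their signs are not all separate cases. All 33 genes together took, as mean and SD over 4 pools, 0.763% ± 0.0756 of a wild-type library and 0.909% ± 0.135 of a DKO library, of which Oog3 alone was 0.494% ± 0.0503 and 0.611% ± 0.0918.

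Pools did not overlap in 2 of those 22 (5.34% of all genes tested), named here after their values were seen. Gm3259 (RefSeq Pramel47) was higher in every DKO pool, at 10.9 ± 1.58 against 6.43 ± 1.36 CPM (SD, n = 4 each; log2 fold change 0.76 ± 0.24, SE; adjusted p by edgeR = 0.469). Gm13128 (RefSeq Pramel30) was lower in every DKO pool, at 14.6 ± 3.91 against 27.1 ± 10.5 CPM (SD, n = 4 each; log2 fold change −0.89 ± 0.29, SE; adjusted p by edgeR = 0.469). Their windows were shared to 78.0% and 61.5% with other genes, Gm13128 with Pramef17, so these counts are uncertain for single genes.

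The 5 lists covered partners of PRAME-like proteins, LIF-STAT3 and naive pluripotency genes, and oocyte transcription factors, and gave 0 calls. Of all genes tested 0.0267% were called and 48.8% had a negative fold change, so 0 says nothing particular to these lists. At an unadjusted edgeR p under 0.05, 3 of the CUL2 list were lower and 0 higher (4.44% and 5.79% of all genes tested). In the LIF-STAT3 list 1 was lower and 1 higher, among oocyte factors 0 and 2, and in the UHRF1 and retinoic acid lists 0. Pools did not overlap for 2 of the CUL2 list, Cops5 among them, and for Klf2, all lower in DKO. They did not overlap for Ezh2 either, which was higher in DKO (5.34% of all genes tested). Among 28 genes of the CUL2 ligase and of neddylation, which switches cullin ligases on, 13 fold changes were positive and 15 negative, with a median of −0.09 that was −0.03 without DKO replicate 1, −0.04 without wild-type replicate 4 and −0.15 without DKO replicate 4. Cul2 itself averaged 198 CPM in wild-type and 167 CPM in DKO (log2 fold change −0.25 ± 0.25, SE; adjusted p by edgeR = 0.716), and that fold change was −0.03 without DKO replicate 1. The member with the smallest p was Cops5, the catalytic subunit of the complex that takes NEDD8 off cullins, with a log2 fold change of −0.73 ± 0.20 (SE; adjusted p by edgeR = 0.469) and 40.5 CPM in DKO against 67.0. In the list of UHRF1 and maintenance methylation, 6 of 12 were positive and the median was −0.01 (from −0.05 to 0.04 with 1 library left out at a time). Uhrf1, whose protein is the target of PRAMEL7, was at 9.71 CPM in wild-type and 13.7 in DKO pools (log2 fold change 0.50 ± 0.23, SE; adjusted p by edgeR = 0.488). That fold change was 0.35 without DKO replicate 1. These are RNA counts, and the amount of UHRF1 protein was not measured here. Dnmt1, the methyltransferase UHRF1 recruits, had a log2 fold change of 0.05 ± 0.19 (adjusted p by edgeR = 0.942), which was −0.03 without DKO replicate 1.

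In the list of retinoic acid receptors and Polycomb repressive complex 2, bound by human PRAME, 9 of 15 tested genes were positive, with a median of 0.13 that ran from −0.01 (without DKO replicate 1) to 0.13 with 1 library left out at a time, and was 0.06 or less without DKO replicate 3 or wild-type replicates 2, 3 or 4. Ezh2, its methyltransferase, had a log2 fold change of 0.21 ± 0.13 (SE; adjusted p by edgeR = 0.568), and Rara one of 0.13 ± 0.56 (adjusted p by edgeR = 0.947) that turned to −0.49 without DKO replicate 1. The LIF-STAT3 and naive pluripotency list, in whose cells Pramel7 is active, had 10 of 16 positive and a median of 0.16, which was 0.33 without wild-type replicate 3 and 0.10 without DKO replicate 1. Its member with the smallest p was the transcription factor Klf2, with a log2 fold change of −0.62 ± 0.21 (SE; adjusted p by edgeR = 0.469), and Stat3 had one of −0.25 ± 0.26 (adjusted p by edgeR = 0.727), or −0.40 without DKO replicate 1. Of 11 oocyte transcription factors 9 were positive, with a median of 0.13. That median was 0.09 without DKO replicate 1 and 0.20 without DKO replicate 3 or wild-type replicate 2. The homeobox gene Obox5 had the smallest p (log2 fold change 0.66 ± 0.26, SE, adjusted p by edgeR = 0.469). Its log2 fold change was 0.46 without DKO replicate 1.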

How the data were processed

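RNA-seq counts of 8 libraries were used. Per the labels' protocols, cDNA was made from pooled embryos with a SMART-Seq kit in 11 PCR cycles, libraries with an Ovation Ultralow kit in 11 more, and all were sequenced on 1 flow cell as single reads of 85 cycles. No molecular identifiers are described. The authors deposited raw whole-number counts per gene; the submitters' processing notes name STAR 2.5.2b, featureCounts 1.5.1 and DESeq2 1.18.1 with builds NCBIM37 and mm9. Strand and multiple-match settings are not given in the sources used here. Symbols were attached by Ensembl identifier (32620 of 37310 matched).

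Counts were filtered with filterByExpr (14970 genes left, all 10 members among them), scaled by TMM and tested with the robust quasi-likelihood test of edgeR 4.0.16 in R 4.3.3 on all 8 libraries without covariates, with Benjamini-Hochberg adjustment over all genes tested and a threshold of 0.05. Log2 CPM used a prior count of 2. Alternatives were DESeq2 1.42.0, limma-voom (limma 3.58.1) with quality weights, other scalings and filters, thresholds of 0.01 and 0.1, pool size as a covariate, a replicate block and each library left out. In simulated data of 14970 genes with 200 changed, edgeR recovered 51% at a 2-fold change, 94% at a 4-fold change and made 4 false calls. Changed genes were taken above a low-level cut-off, and counts were drawn independently from each gene's fitted spread, with no outlying library. The largest log2 fold change among the members, −0.54 for Pramel4, was below 2-fold. Recovery of changes that small was not simulated. Exon lengths and transcripts came from GENCODE mouse release 21 and promoters from RefSeq, both on GRCm38, which differs from the build of the counts. All 10 members matched a RefSeq promoter.

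Members and lists were chosen with earlier results of these data known. Named were all members, the 5 other family genes with the most counts and, in each list, the gene with the smallest p where none passed. Also named were Cul2, Uhrf1, Dnmt1, Stat3, Ezh2 and Rara, and the 3 genes nearest in profile. Pramef12os, an antisense gene, was not counted among the family.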

Additional observations from a re-analysis of the deposited data

How the results depend on the processing

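The number of family members called stayed at 0 under all 19 alternatives, which include 17 other fits, 8 of them with 1 library left out. Over all genes tested 4 were called, against 47 by DESeq2, 7 with no filter on low counts and 1 at a mean of at least 10 CPM. The median log2 fold change of the members was −0.16, between −0.25 and −0.01 with 1 library left out at a time, and −0.0028 without Pramel3 and Pramel4, a choice made after seeing the data. Signs turned in 5 of the 169 refits of single members: Pramel1 at 0.06 without DKO replicate 1 and 0.05 with limma-voom, Pramel5 at 0.10 without wild-type replicate 4, and Pramef12 at −0.02 without DKO replicate 2 and −0.04 with limma-voom. With 1 library left out at a time, these ran from −0.60 to 0.06 for Pramel1, −0.32 to 0.10 for Pramel5 and −0.02 to 0.18 for Pramef12; the cause was not tested. No scaling turned a sign. With a replicate block 4 genes and 0 members were called, and the members' median was −0.20. Same-numbered libraries were correlated at 0.00235 to 0.078 in their deviations from the group means, so no pairing by number was seen. Whether a number marks a shared day or handling is not stated in the sources used here. DKO replicate 1 correlated best with wild-type replicate 3 (0.224). The spread of single members, with standard errors of 0.15 to 0.49, limits what 4 pools against 4 can show.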
